A study of Mus musculus with 15 samples.

Results

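Cnn2, Tagln, Tpm4, Myh9 and Gsn encode proteins that bind, stabilise, cut or pull on actin filaments, and all 5 are counted among the targets of serum response factor (SRF), the transcription factor encoded by Srf. All probe sets annotated to these 5 genes were read, a probe set being the group of short array probes that together measure a transcript. There were 6 probe sets with a single gene symbol among 12654 on the array: 94004_at for Cnn2, 93541_at for Tagln, 95542_at for Tpm4, 93750_at for Gsn, and 100915_at and 102108_f_at for Myh9. A further probe set, 95543_at, is annotated to both Gm7809 and Tpm4 and was not read as a measure of Tpm4. All 7 were among the 9558 probe sets tested.

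Mouse embryonic stem (ES) cells of 3 lines were profiled on Affymetrix MGU74A arrays with total RNA. They were Srf-null cells (E100-/-), rescue cells (E100-/- rescue, by their label made from the Srf-null line) and wild-type cells (E14wt, a widely used mouse ES line). Each line was stimulated with fetal bovine serum and sampled at 0, 10, 30, 60 and 180 min, with 1 array for each line and time and 15 arrays in all. The labels name 1 line per genotype and do not give how the rescue was made, how many clones were used or how the cells were kept before serum, so line and genotype cannot be told apart.

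SRF binds a short DNA element, the CArG box, and acts with partner proteins. With the myocardin-related transcription factors (MRTFs) it reads the pool of unpolymerised actin: when actin polymerises in response to serum, MRTFs are released, enter the nucleus and switch on genes of the actin cytoskeleton with SRF. Cnn2 (calponin 2) and Tagln (transgelin, also called SM22-alpha) are related proteins that bind along filaments, and Tagln is a standard marker of smooth muscle and an established SRF target. Tpm4 is a tropomyosin, which lies along the filament and controls what else can bind it, Gsn (gelsolin) cuts and caps filaments in response to calcium, and Myh9 is the heavy chain of non-muscle myosin IIA, the motor that makes filaments contract.

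The upstream DNA of a member from each pattern described below was examined for the CArG box, spelled as 2 C, then 6 bases that are each A or T, then 2 G, a motif that reads the same on both strands. Sequences are from RefSeq on GRCm38.p6, 250 bases up to the annotated gene start, read 5′ to 3′ on the strand of the gene. Windows of 300 bases, with 50 bases after the start, were available for Cnn2, Tpm4 and Myh9 (1 each) and for Gsn (3). In Cnn2, whose signal was at the floor in most Srf-null arrays, capitals mark an exact CArG box at positions -56 to -47 from the start. In the most upstream Gsn window, capitals mark an element with 1 mismatch at -162 to -153. The Myh9 window, shown because Myh9 had the opposite pattern in rescue cells, held no such element with up to 1 mismatch, and neither did that of Tpm4 or the other Gsn windows.
Cnn2, chr10:79988350-79988599, plus strand: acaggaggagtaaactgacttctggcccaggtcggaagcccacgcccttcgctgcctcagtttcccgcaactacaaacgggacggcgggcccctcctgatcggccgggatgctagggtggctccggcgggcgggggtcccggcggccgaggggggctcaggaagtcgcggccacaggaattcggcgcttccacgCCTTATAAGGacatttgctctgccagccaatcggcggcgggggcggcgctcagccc
Gsn, chr2:35256109-35256358, plus strand: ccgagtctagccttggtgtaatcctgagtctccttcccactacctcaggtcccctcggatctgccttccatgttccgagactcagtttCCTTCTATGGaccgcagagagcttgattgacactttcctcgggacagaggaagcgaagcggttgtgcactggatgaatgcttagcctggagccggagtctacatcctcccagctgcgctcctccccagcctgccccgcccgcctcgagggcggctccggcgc
Myh9, chr15:77842176-77842425, minus strand: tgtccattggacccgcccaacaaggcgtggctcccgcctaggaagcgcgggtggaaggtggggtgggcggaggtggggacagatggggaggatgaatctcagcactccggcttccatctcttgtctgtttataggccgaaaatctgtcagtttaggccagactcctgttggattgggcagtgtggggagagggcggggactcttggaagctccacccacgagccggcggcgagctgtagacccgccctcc
Among all 32851 windows of 300 bases, 1.629% held an exact CArG box and 21.114% held one with up to 1 mismatch. A match describes the letters and does not show binding, and the files hold no measure of SRF binding.

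Several arrays stood apart before any comparison. Srf itself had 0 probe sets, so the genotype could not be checked on its own transcript. On the 0 min arrays labelled rescue and wild-type, Actg1 (gamma-actin) and Igf2 (a fetal growth factor) lay near the Srf-null values rather than near the later arrays of their own lines: Actg1 gave 8891 on rescue 0 min and 9783 on wild-type 0 min, against 7327 to 14004 on the Srf-null arrays from 10 min on. Igf2 lay below 0 on both and on all Srf-null arrays. On later arrays Actg1 was 32948 to 41633 in rescue cells and 27390 to 38839 in wild-type cells. The beta-actin 3′ to 5′ control ratio, which rises when RNA is degraded, was 4.22 on rescue 0 min, 7.53 on wild-type 0 min and 2.94 on Srf-null 0 min. From 10 min on it was 1.64 to 3.83 in Srf-null, 0.914 to 1.42 in rescue and 0.847 to 2.11 in wild-type cells, and the share of an array with zero or negative values was 26.7% to 41.6%, 25.02% to 37.4% and 24.9% to 27.5% in the same order of lines. The 3′ to 5′ ratio of the Gapdh control was 0.722 on rescue 0 min, 1.51 on wild-type 0 min and 1.27 on Srf-null 0 min. From 10 min on the Gapdh ratio was 0.686 to 0.785 in Srf-null, 0.686 to 0.763 in rescue and 0.683 to 1.23 in wild-type cells. Both ratios were highest on wild-type 0 min among the 15 arrays. On rescue 0 min the beta-actin ratio lay above the later arrays of its line and the Gapdh ratio within their range. Beta-actin is also on the list of SRF targets read below. The parts of RNA quality and of the Srf genotype in these ratios were not tested. The wild-type 0 min column alone was deposited with 1 decimal, the other columns with up to 8. Line comparisons are therefore given over all 15 arrays and over the 12 arrays from 10 min on, a choice made with results of these data known, so that calls gained without the 0 min arrays are not independent evidence. Leaving out only the Srf-null 0 min array gave 3, 2, 3 and 0 member calls in the 4 line comparisons described below, and leaving out only rescue 0 min gave 0, 0, 3 and 1, against 0 in each over the 15 arrays. Calls over all probe sets moved too, to 66, 20, 90 and 5 without Srf-null 0 min and to 52, 3, 103 and 20 without rescue 0 min, against 13, 0, 21 and 0 over the 15 arrays.

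Of 12 ES cell markers, 11 or 12 were above the floor on every array. Of 13 fibroblast feeder markers with a probe set, 3 to 7 were above the floor on an array, and their summed normalized intensity from 10 min on was 1436 to 2460 in Srf-null, 1110 to 2289 in rescue and 1129 to 2150 in wild-type cells, with 3838 on wild-type 0 min. Of the collagen genes in that list, Col1a1 was above the floor on all 15 arrays (324 to 963), Col3a1 on 13, Col5a2 on 2 and Col1a2 on 0. S100a4 was above it on 13, Lum on 12, Dcn on 11, Lox on 9, Thy1 on 4, Postn on 2, Pdgfrb on 1, and Pdgfra and Fap on 0. Of 6 smooth muscle markers, Actg2 (1500 to 10551) and Des (88.5 to 492) were above the floor on all 15 arrays, Cnn1 on 12 (up to 1749), Acta2 on 4, all wild-type, Myh11 on 2 and Smtn on 0. The summed smooth muscle markers from 10 min on ran from 4265 to 7310 in Srf-null, 2686 to 9264 in rescue and 3637 to 13268 in wild-type cells. Of 12 primitive and visceral endoderm markers with a probe set, 9 to 11 were above the floor on an array. Their sum from 10 min on was 6816 to 7931 in Srf-null, 8013 to 11336 in rescue and 7291 to 7660 in wild-type cells. At 0 min it was 9178, 7615 and 10524.5 in the same order. Of 3 mesoderm markers with a probe set, 0 or 1 was above the floor on an array. The part of other cell types in the differences below was not tested.

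Values below are normalized intensities, quantile-normalized between arrays, and the floor is the 40th percentile of all normalized values (85.0). A value at or under the floor was set to it before log2, so a log2 difference from a line at the floor is a lower limit. Where all arrays of a line in a fit were set to the floor, any spread within that line was removed. The SE, interval and p of such a probe set leave that spread out and can be too small, in every comparison from that fit. Time points of a line stand for its replicates, and variation over time that the lines share is removed by the time term. The p-values of the line comparisons therefore reflect how unevenly the lines differed from time to time, pooled over the lines. They do not reflect how much independently made lines vary. As in any bulk sample, fewer cells with a transcript and less RNA per cell cannot be told apart.

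**Figure D1:**
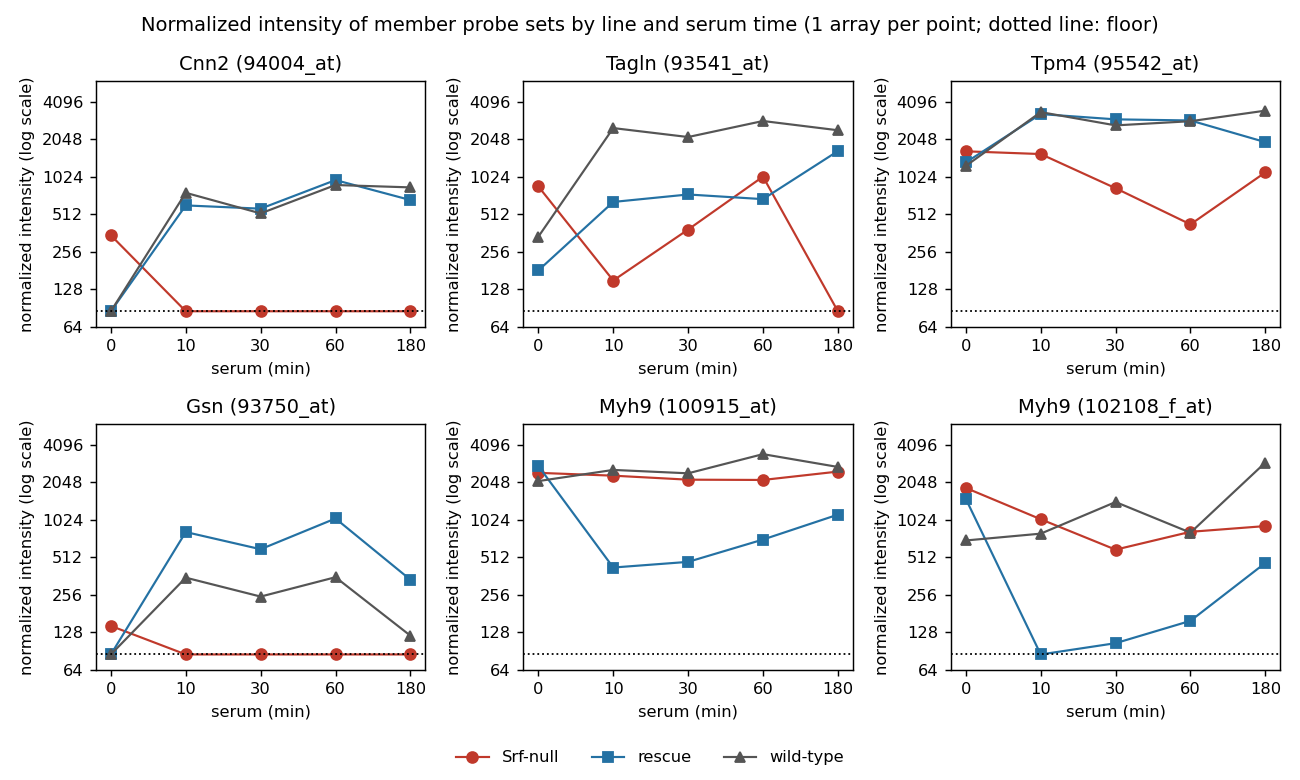
Normalized intensity (log scale) of the 6 probe sets with a single symbol against minutes of serum, with 1 array per point for Srf-null (circles), rescue (squares) and wild-type cells (triangles), and with times evenly spaced. Values under the floor are drawn on the dotted line at 85.0. Cnn2 and Gsn lie on the floor in all 4 Srf-null arrays from 10 min on, and both Myh9 probe sets are lowest in rescue cells at those times.

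Cnn2 was at or under the floor in Srf-null cells and above it in both other lines once the 0 min arrays were set aside. Srf-null cells gave normalized intensities of 346, 12.2, 76.0, 31.5 and 6.59 at 0, 10, 30, 60 and 180 min. Rescue cells gave 57.6, 602, 566, 961 and 664 at the same times. Wild-type cells gave 40.3, 759.5, 519, 877 and 839.6. The Srf-null 0 min array was the only one of its line above the floor, while the 0 min arrays of the other lines were the only ones of theirs below it. At the later times Srf-null cells did not overlap with either line, and at 0 min the order was turned round.

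Tagln varied most within the Srf-null line. It gave 854, 150.0, 385, 1024 and 61.7 in Srf-null cells, a range with no single direction over time. Rescue cells gave 181, 641, 736, 676 and 1642. Wild-type cells gave 338, 2514, 2130.1, 2865 and 2415, so that from 10 min on every wild-type array was above every rescue and Srf-null array. Srf-null and rescue arrays overlapped, and at 60 min the Srf-null value was the higher.

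Tpm4 was well above the floor on every array of every line. Its normalized intensity was 1636, 1555, 827, 424 and 1108 in Srf-null cells. It was 1332, 3257, 2954, 2893 and 1938 in rescue cells. It was 1249, 3377, 2642, 2854 and 3469 in wild-type cells. At the 4 later times all Srf-null arrays were below all rescue and wild-type arrays, and at 0 min the 3 lines lay close together. The probe set shared by Gm7809 and Tpm4 was dim, at -16.7 to 156 in Srf-null, 93.4 to 331 in rescue and -126 to 368 in wild-type cells.

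Gsn was above the floor on 4 rescue and 4 wild-type arrays and brightest in rescue cells. Srf-null cells gave 144 at 0 min and -80.8, -3.60, -8.84 and -178 afterwards, so the gene was above the floor on 1 of 5 arrays. Rescue cells gave 47.8, 817, 595, 1049.9 and 339. Wild-type cells gave -107, 352, 248, 355 and 120.3. At each of the 4 times from 10 min on the rescue array was the highest of the 3 lines and the Srf-null array the lowest, although the rescue value at 180 min lay within the wild-type range.

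Myh9 had the opposite pattern in the rescue line. On 100915_at, Srf-null cells gave 2442, 2318, 2152, 2141 and 2499, the most even series of any member probe set in any line (SD of log2 values 0.102, n = 5 times). Rescue cells gave 2769 at 0 min and 424, 471, 711 and 1127 afterwards. Wild-type cells gave 2097, 2578, 2421, 3451 and 2723. After 0 min all rescue arrays were below all arrays of both other lines, which overlapped each other. The second Myh9 probe set, 102108_f_at, whose suffix marks probes that can also match related transcripts, gave 1848, 1035, 590.1, 821 and 913 in Srf-null cells. It gave 1507, -85.1, 105, 158 and 462 in rescue cells. It gave 699, 793, 1424, 808 and 2954 in wild-type cells, so that the rescue arrays were again lowest from 10 min on and did not overlap with the others.

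The first comparison asked which members depended on the Srf genotype, by setting Srf-null cells against the mean of wild-type and rescue cells. From 10 min on, Cnn2, Tpm4 and Gsn fell in Srf-null cells, and Tagln and Myh9 did not pass the test. Over all 15 arrays, 0 of the 7 probe sets passed.

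Over the 15 arrays, limma called 0.136% of all probe sets (adjusted p under 0.05) and 0 of the 7 member probe sets, of which 5 had an unadjusted p under 0.05. The log2 differences were -2.04 ± 0.65 (SE) for Cnn2 (limma adjusted p = 0.310), -1.30 ± 0.32 for Tpm4 (0.186), -1.63 ± 0.48 for Gsn (0.273) and -1.60 ± 0.67 for Tagln (0.442). Over the 12 arrays from 10 min on, limma called 1.16% of all probe sets and 3 of the 7 members. Cnn2 fell by 3.06 ± 0.25 on the log2 scale (95% interval -3.64 to -2.48, limma adjusted p = 0.00210) and was lower in Srf-null cells at 4 of 4 times against each line. All 4 Srf-null arrays were set to the floor, so the estimate, 8.33-fold lower, depends on that floor, and its SE, interval and p leave out any spread in Srf-null cells. Gsn, likewise set to the floor in Srf-null cells, was 4.69-fold lower at this floor (log2 difference -2.23 ± 0.32, limma adjusted p = 0.0203). The SE and p of Gsn leave out that spread too. Tpm4, measured on every array, fell by 1.71 ± 0.26 (95% interval -2.31 to -1.11, limma adjusted p = 0.0266), a 3.27-fold difference, also at 4 of 4 times against each line.

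Tagln had a log2 difference of -2.44 ± 0.57 (limma adjusted p = 0.0923), with the largest SE of the 6, and without the time term its adjusted p was 0.0486. Myh9 had 0.78 ± 0.20 on 100915_at (limma adjusted p = 0.116) and 0.86 ± 0.38 on 102108_f_at (0.347), and its sign differed between the lines it was set against. The dim probe set shared by Gm7809 and Tpm4 had -1.44 ± 0.30 (limma adjusted p = 0.0637), and it passed without the time term (0.0265) or the intensity trend (0.0414). The Cnn2 call from 10 min on held when any 1 of the 12 arrays was left out (adjusted p 0.00680 to 0.0153) and was lost with the non-positive share as a covariate (-2.95, adjusted p = 0.0588) and on the values as deposited (-3.19, 0.0592). The Tpm4 call was lost in 10 of 12 such fits, all but those without Srf-null 10 min or rescue 180 min (adjusted p up to 0.123 without Srf-null 30 min). The Gsn call was lost without wild-type 10 or 60 min, Srf-null 30 or 60 min, or rescue 30 or 60 min (0.0510 to 0.0912), and on a floor at the 50th percentile (-0.92, 0.0813). With the non-positive share as a covariate Tpm4 had -1.37 (adjusted p = 0.299) and Gsn -2.27 (0.219), and with the beta-actin ratio they had -1.23 (0.190) and -1.65 (0.154). On the values as deposited neither passed (0.456 and 0.248), and Tpm4 did not without a filter on dim probe sets (0.0663).

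Against wild-type cells alone, Cnn2 was the only member that passed. Over the 15 arrays limma called 0% of all probe sets (0 probe sets, with 916 at an unadjusted p under 0.05) and 0 members, 4 of which had an unadjusted p under 0.05. Over the 12 later arrays it called 0.324% of all probe sets and 1 of 7 members. Cnn2 was 8.64-fold lower in Srf-null cells, which were set to the floor (log2 difference -3.11 ± 0.29, limma adjusted p = 0.00544). The call was lost without wild-type 60 min (adjusted p = 0.0505), on the values as deposited (0.182) and with either array quality covariate (0.114 with the non-positive share, 0.0598 with the beta-actin ratio). Tpm4 had -1.80 ± 0.30 (limma adjusted p = 0.0632), Tagln -3.21 ± 0.66 (0.114) and Gsn -1.54 ± 0.37 (0.160), each lower in Srf-null cells at 4 of 4 times. Tpm4 passed without Srf-null 10 min (adjusted p = 0.0481), without the time term (0.0326) and with a filter of 5 arrays (0.0265). For Myh9 the log2 difference was -0.28 ± 0.23 on 100915_at (95% interval -0.81 to 0.24) and -0.64 ± 0.44 on 102108_f_at (-1.64 to 0.36).

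The rescue line was then set against the Srf-null line it came from. From 10 min on, Cnn2, Gsn and Tpm4 rose in rescue cells and both Myh9 probe sets fell. Tagln did not pass the test.

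Over the 15 arrays, limma called 0.22% of all probe sets and 0 of 7 members, of which 6 had an unadjusted p under 0.05. Over the 12 later arrays it called 2.25% of all probe sets and 5 of the 7 member probe sets, 3 higher and 2 lower. With Srf-null cells set to the floor, Cnn2 was 8.04-fold higher in rescue cells (log2 difference 3.01 ± 0.29, limma adjusted p = 0.00321) and Gsn 7.59-fold higher (2.92 ± 0.37, adjusted p = 0.00695). Tpm4 was 3.07-fold higher (1.62 ± 0.30, limma adjusted p = 0.0361). Myh9 fell by 1.85 ± 0.23 on the log2 scale on 100915_at (limma adjusted p = 0.00655) and by 2.37 ± 0.44 on 102108_f_at (0.0332), each at 4 of 4 times. Tagln had 1.68 ± 0.66 (95% interval 0.16 to 3.19, limma adjusted p = 0.310).

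The calls of Cnn2, Gsn and Myh9 on 100915_at held when any 1 of the 12 arrays was left out, with adjusted p up to 0.0258, 0.0411 and 0.0443. Those of Tpm4 and of Myh9 on 102108_f_at were lost in 10 and 11 of 12 such fits, with adjusted p up to 0.166 and 0.148 without rescue 30 min. Tpm4 held only without Srf-null 10 min or rescue 180 min, and 102108_f_at only without Srf-null 180 min. Scaled to a common median, which moved the median of all probe sets to 0.24, Myh9 had -1.62 on 100915_at (adjusted p = 0.0922) and -1.74 on 102108_f_at (0.182), and Tpm4 had 1.96 (0.0773). On the values as deposited none of the 5 calls held, and with the non-positive share as a covariate those of Cnn2 and of Myh9 on 100915_at held. With the beta-actin ratio as a covariate Gsn had 2.31 (adjusted p = 0.0889), Tpm4 1.11 (0.274) and Myh9 -1.79 on 102108_f_at (0.250). With the floor at the 50th percentile Myh9 had -1.60 on 102108_f_at (0.0517). Without a filter on dim probe sets neither Tpm4 (0.0904) nor Myh9 on 102108_f_at (0.0664) passed, and without the intensity trend Tpm4 did not (0.0617).

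Set against wild-type cells, the rescue cells differed in Myh9 and in no other member that passed the test. Over the 15 arrays limma called 0% of all probe sets (0 probe sets, with 693 at an unadjusted p under 0.05) and 0 members, 2 of which, both of Myh9, had an unadjusted p under 0.05. Over the 12 later arrays it called 0.398% of all probe sets and 2 of the 7 members. Myh9 fell by 2.13 ± 0.23 on the log2 scale in rescue cells on 100915_at (95% interval -2.65 to -1.61, limma adjusted p = 0.0130), a 4.38-fold difference. On 102108_f_at it was 8.03-fold lower with rescue 10 min set to the floor (log2 SE 0.44, 95% interval -4.00 to -2.01, limma adjusted p = 0.0323), and the log2 difference was -2.24 with the floor at the 50th percentile (0.0384). Both probe sets were lower in rescue cells at 4 of 4 times and higher at 0 min.

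The Myh9 call on 100915_at was lost in 6 of 12 fits that left out 1 array (wild-type 10, 30 or 60 min, or rescue 10, 30 or 60 min, with adjusted p 0.0569 to 0.0919), under a common median of all arrays (-2.15, 0.111), and on the values as deposited (-1.86, 1). On 102108_f_at the call was lost in 10 of 12, all but those without Srf-null 10 or 180 min (adjusted p up to 0.161 without rescue 30 min). It was also lost under a common median (-2.78, 0.165), on the values as deposited (-2.67, 0.522), without a filter on dim probe sets (0.0833) and with the non-positive share as a covariate (-2.90, 0.0680). Cnn2 and Tpm4 had differences of -0.10 ± 0.29 (95% interval -0.78 to 0.57) and -0.18 ± 0.30 (-0.87 to 0.52), so that these data bound a difference between rescue and wild-type cells but do not show that the levels are equal. Tagln had -1.54 ± 0.66 (95% interval -3.05 to -0.02, limma adjusted p = 0.497) and was lower in rescue cells at 4 of 4 times. Gsn had 1.38 ± 0.37 (0.54 to 2.22, limma adjusted p = 0.235) and was higher at 4 of 4 times.

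**Figure D2:**
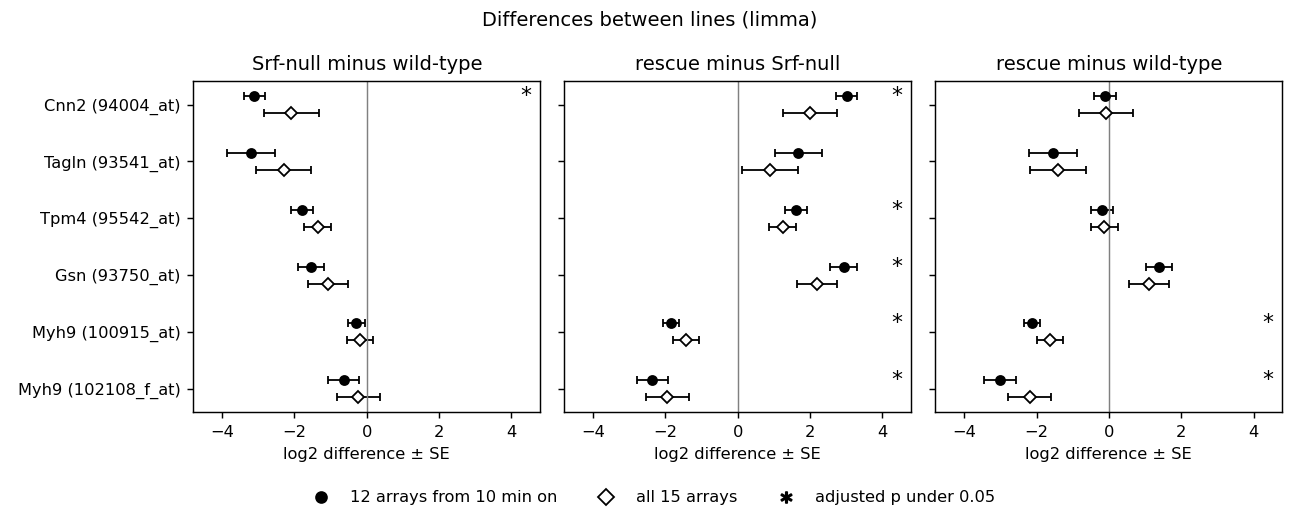
Log2 differences between lines (points) with their standard errors (bars) for the 6 probe sets, over the 12 arrays from 10 min on (filled circles) and all 15 arrays (open diamonds), with asterisks for limma adjusted p under 0.05. No open diamond has an asterisk, and both Myh9 probe sets lie to the left of 0 in both comparisons of the rescue line.

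For the serum responses, the arrays of a line at 30 and 60 min (early) or at 180 min (late) were set against its 0 and 10 min arrays (baseline). No member passed any of the 7 comparisons. limma called 0% of all probe sets for the early response over the 3 lines (243 at an unadjusted p under 0.05) and 0.0523% for the late one. It called 0.0732% for the early response in Srf-null, 0% in rescue (380 at an unadjusted p under 0.05) and 0% in wild-type cells (243). For the differences between Srf-null and the other lines it called 0.0209% early and 0.0105% late. The members had an unadjusted p under 0.05 in 3 of these tests, of Tpm4 and Tagln.

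In Srf-null cells the early response of Tpm4 was a log2 difference of -1.43 ± 0.54 (limma adjusted p = 0.506), and with the non-positive share as a covariate it turned to 0.64. That response was 0.49 ± 0.54 in rescue and 0.42 ± 0.54 in wild-type cells (limma adjusted p = 1 for both). The early response of Srf-null cells minus that of the other lines was -1.88 ± 0.67 (limma adjusted p = 0.440), and with the non-positive share as a covariate it turned to 1.36. For Tagln the late response of Srf-null cells minus that of the other lines was -3.90 ± 1.66 (limma adjusted p = 0.638). It rests on 1 array per line at 180 min, where Tagln was 61.7 in Srf-null, 1642 in rescue and 2415 in wild-type cells. The baseline holds the 0 min arrays whose standing is described above. Without them the baseline is 1 array per line. A fit without them therefore cannot decide whether a member responded to serum, and its calls are not given.

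Across the 15 arrays the members formed no single pattern. As a description, with points that share lines, serum times and array quality, Cnn2 correlated with Tpm4 (Pearson r = 0.854 of log2 values, 0.870 over the 12 arrays from 10 min on), Gsn (0.825 and 0.800) and Tagln (0.780 and 0.740). Tagln correlated less with Tpm4 (0.484) and Gsn (0.463). The Myh9 probe sets correlated with each other (0.921) and inversely with Gsn (-0.730 for 100915_at and -0.737 for 102108_f_at). The 4 rescue arrays from 10 min on had the lowest Myh9 values, and 3 of them the highest Gsn values.

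**Figure D3:**
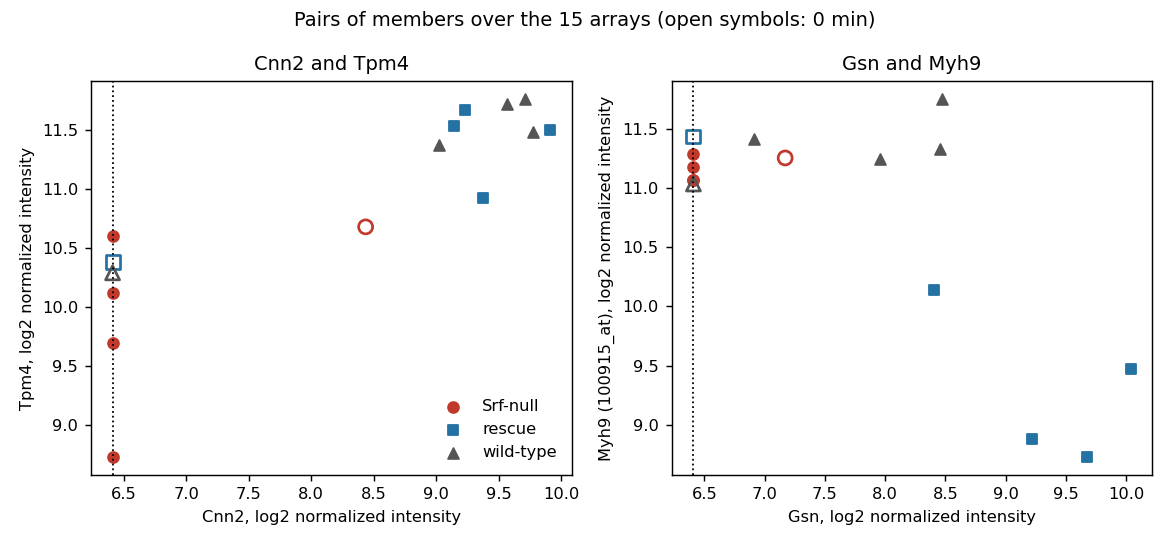
Log2 normalized intensity of Tpm4 against Cnn2 (left) and of Myh9 (100915_at) against Gsn (right), 1 point per array for Srf-null (circles), rescue (squares) and wild-type cells (triangles), open symbols at 0 min and a dotted line at the floor (6.41). The 0 min arrays of rescue and wild-type cells lie near the Srf-null arrays in both panels, and the 4 later rescue arrays form the low Myh9 group.

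For each gene the 3 probe sets of other genes with the most similar profile were listed by Pearson r over the 15 arrays. For Cnn2 they were Krt18, a keratin (0.935), Slc25a4, a mitochondrial ATP carrier (0.932), and Igf2 (0.917). For Tagln they were Actc1, cardiac actin (0.864), Golga7 (0.845) and Acta1, skeletal muscle actin (0.761). For Tpm4 they were Taf11 (0.927), Prnp (0.921) and Slc25a4 (0.921). For Myh9, on 100915_at, they were Sat1, an enzyme of polyamine breakdown (0.939), Cd9, a membrane tetraspanin (0.904), and Degs1 (0.901). For Gsn they were the kinase gene Akt1 (0.963), the corepressor gene Sin3b (0.948) and Rac3 (0.925).

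The same fit was read for 2 lists of related genes, each gene by its brightest probe set. The first held 20 relatives of the members (other calponins, transgelins, tropomyosins, non-muscle myosin II chains and gelsolin family proteins), of which 18 had a probe set and 16 were tested. In Srf-null cells against both other lines, limma called 0 of the 16 over the 15 arrays (0 with an unadjusted p under 0.05), against 0.136% of all probe sets, and 0 from 10 min on (1), against 1.16%. Their median log2 difference from 10 min on was 0.042, against 0.016 for all probe sets tested, and 10 of 16 were positive. Several of the 16, Tagln2 and Tagln3 among them, were at or under the floor on most arrays, and Myh11 was above it on 2 of 15. Differences of such genes rest largely on values set to the floor, which limits the count, the median and the signs. The log2 differences ran from -0.45 for Tagln2 (limma adjusted p = 0.568) to 1.65 for Tagln3 (0.175, the 1 with an unadjusted p under 0.05), both relatives of Tagln. Cnn1, a relative of Cnn2, had 0.83 (limma adjusted p = 0.452), Tpm3, a broadly expressed tropomyosin, 0.08 (0.751) and Myh10, the heavy chain of non-muscle myosin IIB, 0.06 (0.960).

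The other list held 42 other SRF and MRTF targets of the actin cytoskeleton, of which 31 were tested. Over the 15 arrays 0 were called (9 had an unadjusted p under 0.05). Without the 0 min arrays, 2 of 31 (6.45%) fell in Srf-null cells and 0 rose, against 1.16% of all probe sets called, with a median of -0.24 against 0.016. Actg1 fell by 1.58 (limma adjusted p = 0.00377) and Csrp1, a LIM protein that binds actin cross-linkers, by 2.02 (0.0115). The 0 min arrays were set aside partly because of their Actg1 values. Calls of Actg1 without those arrays, and the shares of the list that include it, are therefore not independent support. Csrp1 gave 96.3 to 351 from 10 min on in Srf-null, 826 to 1300 in rescue and 273 to 650 in wild-type cells. Acta2, smooth muscle actin, also had an adjusted p under the threshold (-1.68, 0.0157) but differed from wild-type cells only, since it was at the floor on all Srf-null and rescue arrays, and was not counted. Against wild-type cells alone from 10 min on, Actg1, Acta1 and Acta2 fell in Srf-null cells (9.68% of the list, against 0.324% of all probe sets). In rescue against Srf-null cells Actg1, Csrp1 and Lima1 rose (9.68%, against 2.25%), and in rescue against wild-type cells Acta2 fell (3.23%, against 0.398%).

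**Figure D4:**
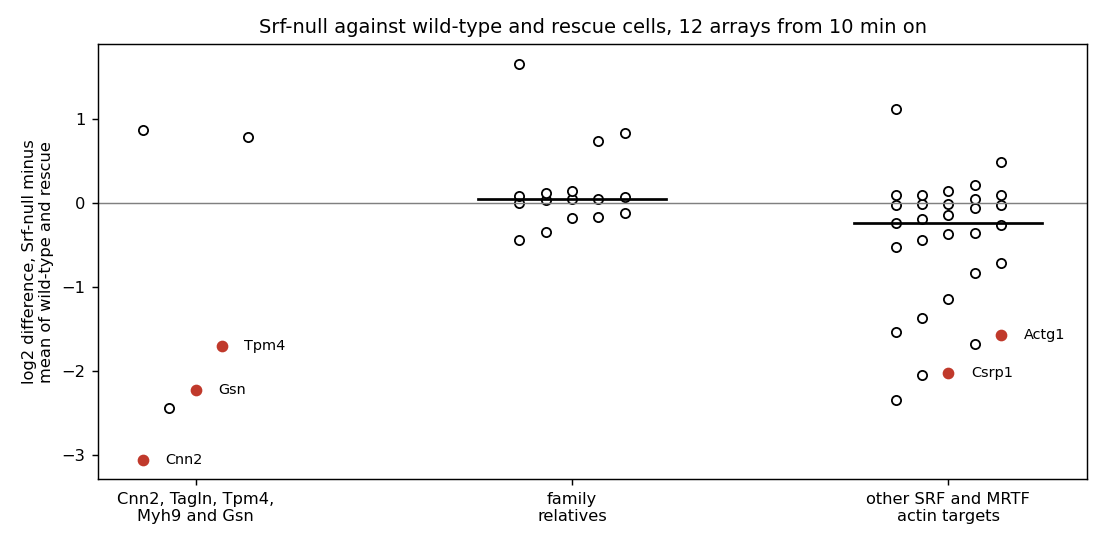
Log2 difference of Srf-null cells from the mean of wild-type and rescue cells over the 12 arrays from 10 min on, 1 point per probe set for the 5 genes (left) and 1 per gene for the 2 lists, filled red where called by limma, with bars at list medians. The 3 filled points of the 5 genes are Cnn2, Gsn and Tpm4, and the filled points of the lists are Actg1 and Csrp1.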

How the data were processed

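The table deposited by the authors holds linear intensity values, 1 per probe set and array, for 12654 probe sets with 66 controls among them. Between 24.9% and 41.6% of an array's values were 0 or negative. Which software, background treatment and scaling the authors used is not given in the sources used here. Columns were assigned by sample title, and 0 columns had no sample. None of the 105 pairs of arrays was identical (0 pairs). The 2% trimmed mean ran from 350.2 to 1438 between arrays, and values were quantile-normalized here. Values under the 40th percentile (85.0) were set to it, and log2 was taken. The filter kept 9558 probe sets above this floor on 2 or more of the 15 arrays, controls aside. Gene names came from the platform annotation, with 1 symbol for 10298 probe sets, several for 363 and no entry for 1993.

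All tests were run in limma 3.58.1 (R 4.3.3), by lmFit and eBayes with an intensity trend, with Benjamini-Hochberg adjustment over all 9558 probe sets and a threshold of 0.05. Lines were compared in a model of line and time (8 residual degrees of freedom over 15 arrays, 6 over 12), and a call of Srf-null against both lines also needed the same direction against each. Serum phases were compared within lines with 6. The code was tested on simulated data. Named genes were all probe sets of the 5 genes, the 3 most correlated other genes of each and the list members called in Srf-null against both lines by smallest p; Tpm3, Myh10, Tagln2, Tagln3, Cnn1, Acta1, Acta2 and Lima1 were named after their values had been seen. The members, lists, models and alternatives were chosen with earlier results of these data known. A further list of genes is not reported here. The number of arrays limits the precision.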

Additional observations from a re-analysis of the deposited data

Results flagged for a closer look

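Within each line, the 5 arrays of each of the 7 probe sets were examined for a single array far from the other 4 by Dixon's gap test on log2 values. The 3 of 21 combinations of probe set and line with over 1 array at the floor, all Srf-null (Cnn2, Gsn and the probe set shared by Gm7809 and Tpm4), were left out, since values at the floor are tied. Of the other 18, 4 had such an array, each at 0 min. Chance gives about 5%, but over all probe sets tested, by the same rule, 10.7% of combinations had one, and 64.6% of those were at 0 min.

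Cnn2 was low at 0 min in the rescue and wild-type lines: its rescue 0 min value was 57.6 normalized intensity units, below the 566 to 961 of the later rescue arrays, and its wild-type 0 min value was 40.3, below the 519 to 877 of the later wild-type arrays. Tagln in wild-type cells was 338 at 0 min, against 2130.1 to 2865 later, and Tpm4 in wild-type cells was 1249, against 2642 to 3469. The beta-actin 3′ to 5′ ratio was 4.22 on rescue 0 min and 7.53 on wild-type 0 min, and that of Gapdh was 0.722 and 1.51. The part of either ratio in these values was not tested.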

How the results depend on the processing

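Counts of member probe sets called are given for 4 comparisons in turn: Srf-null against both lines, Srf-null against wild-type, rescue against Srf-null, and rescue against wild-type. Over 15 arrays they were 0, 0, 0 and 0. Without the 0 min arrays they were 3, 1, 5 and 2. With the non-positive share of an array as a covariate as well, they were 0, 0, 2 and 1 (over all probe sets 4, 1, 47 and 13, against 111, 31, 215 and 38 without the covariate). Leaving out only the rescue and wild-type 0 min arrays also gave 3, 1, 5 and 2 (119, 31, 211 and 38 over all probe sets). That fit is no separate check, since the Srf-null 0 min array is then alone at its time. The time term takes it up, and it adds nothing to the line differences. Leaving out 1 array in turn gave 0 to 3, 0 to 2, 0 to 3 and 0 to 1. Without the 0 min arrays, the other SRF and MRTF targets had 2 calls, against 0 over 15 arrays. No member was called in a serum response under any alternative that kept all 15 arrays. Calls over all probe sets did move in these fits. Scaling to a common median, for example, gave 44 for the early response of Srf-null cells minus that of the other lines, against 2 in the main fit.

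For the 12 arrays from 10 min on, alternatives chosen after seeing the data gave 3, 1, 2 and 0 calls when scaled to a common median (59, 14, 62 and 4 over all probe sets), 0, 0, 0 and 0 on values as deposited (3, 1, 8 and 0), 2, 1, 3 and 1 without a filter (88, 22, 191 and 28), and 3, 2, 5 and 2 with a filter of 5 arrays (149, 34, 238 and 47). The beta-actin ratio as a covariate gave 1, 0, 2 and 2 (24, 14, 79 and 59 over all probe sets), and dropping the time term (no replicate block) gave 4, 2, 5 and 2 (178, 61, 247 and 60). Leaving out 1 array in turn gave 1 to 3, 0 to 2, 3 to 4 and 0 to 2 member calls, and the calls over all probe sets in these fits are not given here. A common median moved the median of all probe sets to -0.27, -0.31, 0.24 and -0.07.

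Reversals concerned differences that did not pass the test. For rescue against wild-type, Cnn2 (-0.08) was 0.081 and Tpm4 (-0.12) was 0.17 on values as deposited, and 0.27 and 0.10 with the non-positive share as a covariate. Leaving out 1 array gave -0.61 to 0.41 for Cnn2, -0.37 to 0.041 for Tpm4 and -0.44 to 0.00091 for the probe set shared by Gm7809 and Tpm4. From 10 min on, values as deposited gave 0.10 for Cnn2 and 0.083 for Tpm4, and leaving out 1 array gave -0.40 to 0.068 for Tpm4. For Srf-null against wild-type, Myh9 on 100915_at was 0.067 with the non-positive share as a covariate and without the 0 min arrays, and leaving out 1 array gave -0.85 to 0.10 on 102108_f_at. The early response of Tpm4 in Srf-null cells was 0.64, and its difference from the other lines 1.36, with the non-positive share as a covariate. The causes were not tested. A floor at the 20th percentile, planned, was not run because that percentile is a negative intensity (-102); the 50th was used.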
